A study of Mus musculus with 10 samples.

Results

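The 10 genes described here encode the transcription factors that drive the mesenchymal programme: Twist1, Twist2, Prrx1, Snai1, Snai2, Zeb1, Zeb2, Runx1, Runx2 and Tcf21. Their sites were taken from a list of 153924 accessible sites found across all samples of an ATAC-seq experiment. ATAC-seq cuts open chromatin with the Tn5 transposase, so a stretch with many cut fragments is read as an accessible site. A site was counted as a promoter site of a gene when any of its bases fell within 1 kb of an annotated start site of that gene. A distal site lay outside that distance of every annotated start site of any gene and had its middle in the gene body or within 200 kb of it. By these rules the 10 genes, of 21938 protein-coding genes on chromosomes 1 to 19, X and Y, held 19 promoter sites and 416 distal sites, 435 in all.

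The cells were immortalized mouse embryo fibroblasts (iMEF) of 1 clone, NG3. In every group, controls included, the endogenous Ash2l alleles lacked exon 4 and the cells lived on human ASH2L, a core subunit of KMT2 histone methyltransferase complexes, fused to FKBP12 F36V with 2 HA tags and delivered by a lentiviral construct. The degrader dTAG-13 removes this fusion protein. There were 5 groups of 2 libraries each: control cells without dTAG-13, and cells given dTAG-13 for 30 min, 4 h, 8 h or 24 h. The labels call the controls WT in the titles, although they carry the same exon 4 deletion, and untreated with dTAG. The methods name ethanol (EtOH), the vehicle, as the control. The list pools all 10 libraries and gives positions without a value for any library. A site may thus come from 1 group or from all of them, depth is unknown, no replicate error can be given, and no test was made. Nothing below compares treated with control cells.

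Mesenchymal cells such as fibroblasts move singly and deposit extracellular matrix, whereas epithelial cells are held in sheets by E-cadherin. The SNAI and ZEB factors are zinc finger repressors that bind E-boxes and switch off E-cadherin and other epithelial genes. The TWIST factors and TCF21 are basic helix-loop-helix proteins that pair with E proteins, PRRX1 is a homeodomain protein of limb and craniofacial mesenchyme, and the RUNX factors, with their partner CBFB, direct blood formation (RUNX1) and bone formation (RUNX2). Genes of this kind are often regulated from far away, by enhancers in their introns, in neighbouring genes or in gene-poor flanks.

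The promoters differed in base composition, and the sequences below show both kinds, those inside an accessible site and that of Tcf21, which was outside. They are the bases just upstream of an annotated start, 5′ to 3′ on the strand of the gene, from RefSeq (GRCm38.p6), with each CpG in capitals. Of the 10 genes 8 matched this promoter table, with 12 entries. Snai2 and Zeb1 have no entry.
Twist1 (chr12:33957421-33957670, plus strand): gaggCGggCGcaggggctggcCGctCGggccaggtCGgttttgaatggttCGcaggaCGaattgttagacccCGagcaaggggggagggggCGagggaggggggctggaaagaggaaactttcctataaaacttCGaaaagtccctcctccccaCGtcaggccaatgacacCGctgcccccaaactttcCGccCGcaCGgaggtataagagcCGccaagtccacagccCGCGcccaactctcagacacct
Twist2 (chr1:91801211-91801460, plus strand): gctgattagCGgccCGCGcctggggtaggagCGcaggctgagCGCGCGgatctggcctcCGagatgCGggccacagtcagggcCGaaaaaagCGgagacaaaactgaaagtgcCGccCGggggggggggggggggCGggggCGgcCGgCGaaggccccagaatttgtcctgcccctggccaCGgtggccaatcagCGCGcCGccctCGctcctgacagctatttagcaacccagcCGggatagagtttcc
Prrx1 (chr1:163313711-163313900, minus strand): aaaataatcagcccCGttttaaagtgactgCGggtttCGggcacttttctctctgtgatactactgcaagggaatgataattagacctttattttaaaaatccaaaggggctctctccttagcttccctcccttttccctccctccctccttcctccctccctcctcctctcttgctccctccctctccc
Snai1 (chr2:167537945-167538194, plus strand): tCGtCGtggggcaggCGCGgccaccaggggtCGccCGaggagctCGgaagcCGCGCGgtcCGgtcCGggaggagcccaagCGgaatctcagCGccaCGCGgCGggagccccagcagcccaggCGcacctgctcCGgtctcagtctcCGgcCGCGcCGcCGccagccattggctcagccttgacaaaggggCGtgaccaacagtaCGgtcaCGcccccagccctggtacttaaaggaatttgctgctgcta
Runx1, upstream start (chr16:92826150-92826324, minus strand): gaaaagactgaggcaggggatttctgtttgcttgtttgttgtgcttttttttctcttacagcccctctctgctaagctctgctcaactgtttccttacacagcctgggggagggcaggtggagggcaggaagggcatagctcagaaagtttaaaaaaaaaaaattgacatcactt
Runx1, downstream start (chr16:92697330-92697579, minus strand): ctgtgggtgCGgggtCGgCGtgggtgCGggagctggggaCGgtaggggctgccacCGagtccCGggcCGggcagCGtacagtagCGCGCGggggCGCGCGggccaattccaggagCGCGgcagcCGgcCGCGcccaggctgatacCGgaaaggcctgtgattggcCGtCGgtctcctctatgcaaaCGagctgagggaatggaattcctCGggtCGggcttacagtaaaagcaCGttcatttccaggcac
Runx2, upstream start (chr17:44814798-44814877, minus strand): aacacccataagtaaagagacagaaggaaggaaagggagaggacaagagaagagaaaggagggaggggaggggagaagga
Tcf21 (chr10:22820175-22820393, minus strand): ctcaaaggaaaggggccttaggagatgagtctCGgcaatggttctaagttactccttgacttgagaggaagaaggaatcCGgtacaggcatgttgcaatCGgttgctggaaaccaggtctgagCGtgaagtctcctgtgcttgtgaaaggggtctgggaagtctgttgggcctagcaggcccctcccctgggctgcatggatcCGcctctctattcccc

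The stretch of Snai1 held 27 CpG in 250 bases, that of Twist2 23 and that of Twist1 18. Over the 32851 promoters of the table the median was 6 CpG in 250 bases, with quartiles of 2 and 16. The 2 starts of Runx1 were opposite: 27 CpG in 250 bases at the downstream start and 0 in the 175 bases at the upstream start. The upstream start of Runx2 also had 0, in 80 bases, and Prrx1 had 3 in 190 bases. These stretches lay entirely inside an accessible site, and the 219 bases of Tcf21, with 5 CpG, lay entirely outside. The 4 entries of Zeb2, not printed, were split: 250 bases with 9 CpG and a stretch of 12 bases lay inside a site, and stretches of 219 bases with 6 CpG and of 21 bases with 0 lay outside. The Snai1 stretch held 1 match to the E-box CAGGTG that SNAI and ZEB proteins bind, and the upstream Runx1 stretch held 1, against 17.2% of all promoters in the table with at least 1. A match is a description of letters and not of binding.

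A promoter site was found for 9 of the 10 genes, where 70.8% of protein-coding genes had one. The gene without was Tcf21, a factor of visceral and epicardial mesenchyme. CpG content moved with this count, and its part in it was not tested. Of the 10 genes 9 had a CpG-rich start, meaning a 500-bp window within 1 kb of it with at least 55% GC and an observed to expected CpG ratio of at least 0.75, against 53.3% of protein-coding genes. Of the protein-coding genes with such a start, 96.5% had a promoter site. Among the 9 CpG-rich genes here 8 had one, so the count was near this background. Prrx1 was not CpG-rich, with a highest ratio of 0.65, and had a promoter site. Tcf21 was CpG-rich with a ratio of 0.76, just inside the limit, and was 1 of 413 such genes, 3.53%, without a site. The nearest accessible site lay 3202 bp from its start sites.

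The promoter sites were wide at most of these genes. The widest promoter site of each gene measured 3008 bp at Runx2, 2937 bp at Twist2, 2680 bp at Runx1, 2648 bp at Zeb1 and 2423 bp at Twist1. It measured 1820 bp at Prrx1, 1661 bp at Snai1, 1648 bp at Snai2 and 1412 bp at Zeb2. The median over the 9 genes was 2423 bp, against 1412 bp over all protein-coding genes with a promoter site and 1516 bp (quartiles 1263 and 1845) over the CpG-rich ones. Of the 9 genes 8 were above the CpG-rich median, and Zeb2 was below it. The widest site was taken over all promoter sites of a gene, which numbered 3 or 4 at Zeb1, Zeb2, Runx1 and Runx2. At the outermost 5′ end of each gene alone the median was 1819 bp, and no such value was computed for all protein-coding genes. A site of at least 2000 bp was found at 5 of the 10 genes, where 9.86% of protein-coding genes had one. That limit, and those of 3 promoter sites and 7 start sites used below, were chosen with the widths and counts known.

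The sites reached to both sides of the start. At Twist1 the site ran from 985 bp upstream to 1437 bp downstream of the 5′ end, which is most of the 2.16-kb gene. At Twist2 it ran from 1316 bp upstream to 1620 bp downstream, and at Prrx1 from 1253 bp upstream to 566 bp downstream. The 2 Snail genes were near in width and shifted in place: the Snai1 site began 483 bp upstream and ended 1177 bp downstream, and the Snai2 site (chr16:14704889-14706536, mm10) began 963 bp upstream and ended 684 bp downstream.

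Several of these genes have alternative promoters, and some of those were accessible too. The 10 genes had 70 annotated start sites, of which 50 lay inside a site and 63 had a site within 1 kb. Start sites at most 1 kb apart were joined into 21 groups, and 16 groups had a site. At least 3 promoter sites were found at Zeb1, Zeb2, Runx1 and Runx2, 4 of the 10 genes, where 6.85% of protein-coding genes had as many. These 4 genes have 7 to 29 annotated start sites, so the count is also set beside genes of that kind: of the 4505 protein-coding genes with at least 7 start sites, 21.3% had at least 3 promoter sites.

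**Figure D1:**
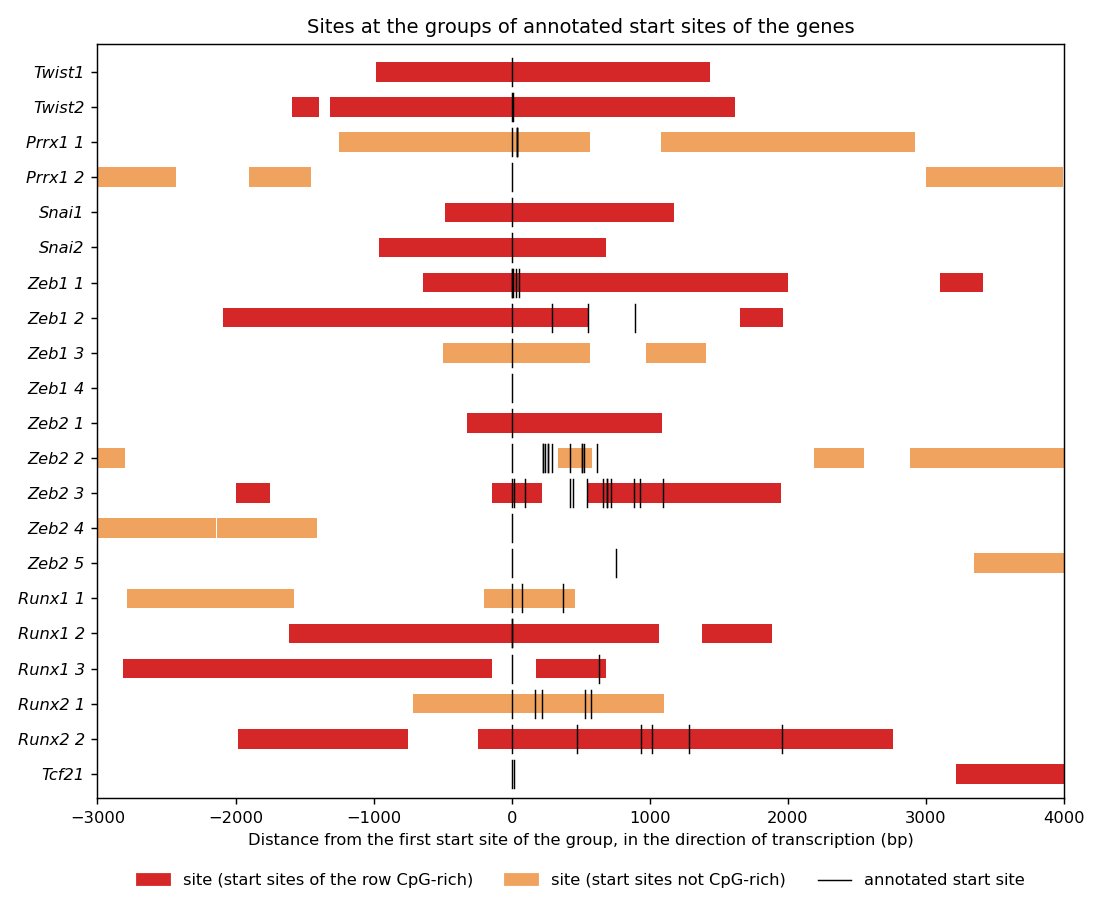
Accessible sites around the 21 groups of annotated start sites, 1 row a group, numbered along the gene. The x axis is the distance in bp from the first start site of the group in the direction of transcription, boxes are sites (red, start sites of the row CpG-rich, and orange, not) and black lines are start sites. Rows without a site within 1 kb are the last groups of Prrx1, Zeb1 and Zeb2, the fourth of Zeb2, and Tcf21, whose nearest site begins at 3202 bp.

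Runx1 and Runx2 shared 1 arrangement. Each is known to be transcribed from a distal promoter, P1, and a proximal one, P2, which give proteins that differ at the N-terminus. At Runx1 the upstream start group was covered by a site of 663 bp in a CpG-poor region, with a ratio of 0.48. The next group, 128821 bp into the gene, was covered by a site of 2680 bp in a CpG-rich region, with a ratio of 1.02. At Runx2 the upstream group was covered by 1819 bp, with a ratio of 0.44, and the group 78149 bp further on by 3008 bp (chr17:44733884-44736891), with a ratio of 1.06. A further site of 507 bp lay over the third start group of Runx1, and one of 1233 bp beside P2 of Runx2. In both genes the widest promoter site lay at a CpG-rich downstream group. It measured 2680 bp against 663 bp at the upstream group of Runx1, and 3008 against 1819 bp at Runx2. The third group of Runx1 was CpG-rich too, with a ratio of 0.93, and its site of 507 bp was narrower than that of the upstream group.

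Zeb1 and Zeb2 both have several annotated first exons, and their sites differed in width. The widest site of Zeb1, 2648 bp (chr18:5591217-5593864, mm10), held 8 of its 11 start sites, of its first and second groups, and the third accessible group lay 11884 bp into the gene in a region without CpG enrichment (ratio 0.14), under a site of 1064 bp. Sites of 316 and 431 bp near these held no start site. The start site 139221 bp into Zeb1 had none, the nearest being 8689 bp away. Zeb2 had 29 start sites, and its promoter sites were narrower: 1412 bp at the 5′ end (chr2:45116306-45117717), 1404 bp over 7 start sites from 6769 to 8172 bp downstream, and 361 and 246 bp between them. Its groups at 63154 and 93725 bp had no site within 1 kb. At Prrx1 the start site at 24486 bp had no site within 1 kb either, the nearest being 1457 bp away.

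Distal sites were more numerous than at the typical gene, with Snai2, Tcf21 and Twist1 as exceptions. The gene body with its flanks held 58 distal sites at Runx2, 57 at Snai1, 56 at Runx1, 52 at Prrx1, 49 at Zeb1, 41 at Zeb2, 40 at Twist2, 25 at Twist1, 23 at Tcf21 and 15 at Snai2. The median was 45, against 26 over all protein-coding genes (quartiles 16 and 35). Longer genes have longer windows, so genes were also ranked by distal sites per Mb of window. The median density was 82.3 per Mb for the 10 genes and 59.6 for protein-coding genes (quartiles 37.1 and 78.5), and the median rank was 79.0%, meaning that this share of protein-coding genes had a lower density. Ranked on the same chromosome the median was 84.7%.

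**Figure D2:**
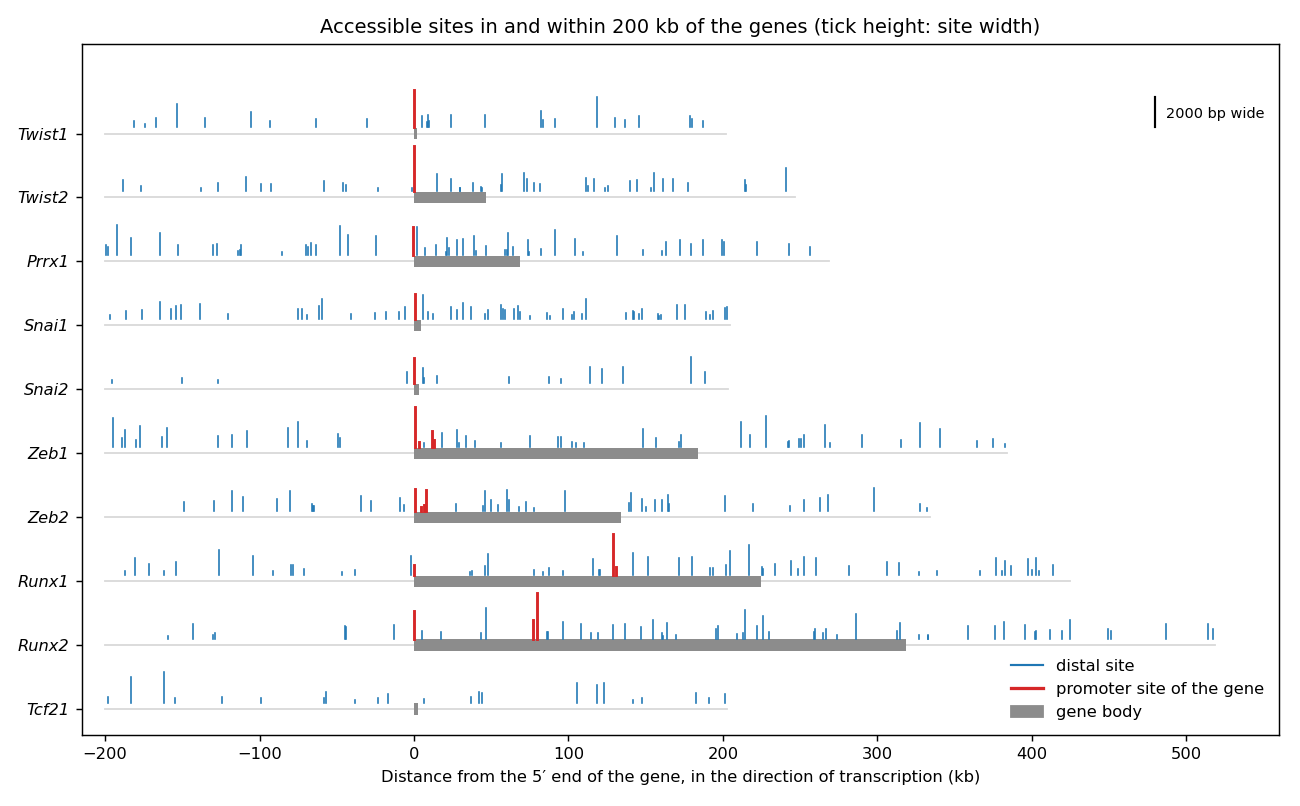
Map of the 10 loci, with the distance from the 5′ end in kb, in the direction of transcription, on the x axis, and 1 row a gene. Grey bars are gene bodies, blue ticks distal sites and red ticks promoter sites of the gene, and tick height is site width (promoter sites of other genes are not drawn). The 58 distal sites of Runx2 lie mostly in its body, those of Snai1 all outside, and Snai2 has a stretch of 122 kb upstream without a site.

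The top 25.0% of protein-coding genes by density held 6 of the 10 genes: Snai1 with 140.9 sites per Mb (rank 99.4%), Prrx1 with 111.0 (95.6%), Runx1 with 89.6 (85.5%), Twist2 with 89.6 (85.4%), Zeb1 with 84.0 (80.6%) and Runx2 with 80.7 (77.4%). Zeb2 followed with 76.8 (73.1%) and Twist1 with 62.2 (53.7%). Tcf21 with 57.1 (46.4%) and Snai2 with 37.2 (25.0%) were below the median.

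**Figure D3:**
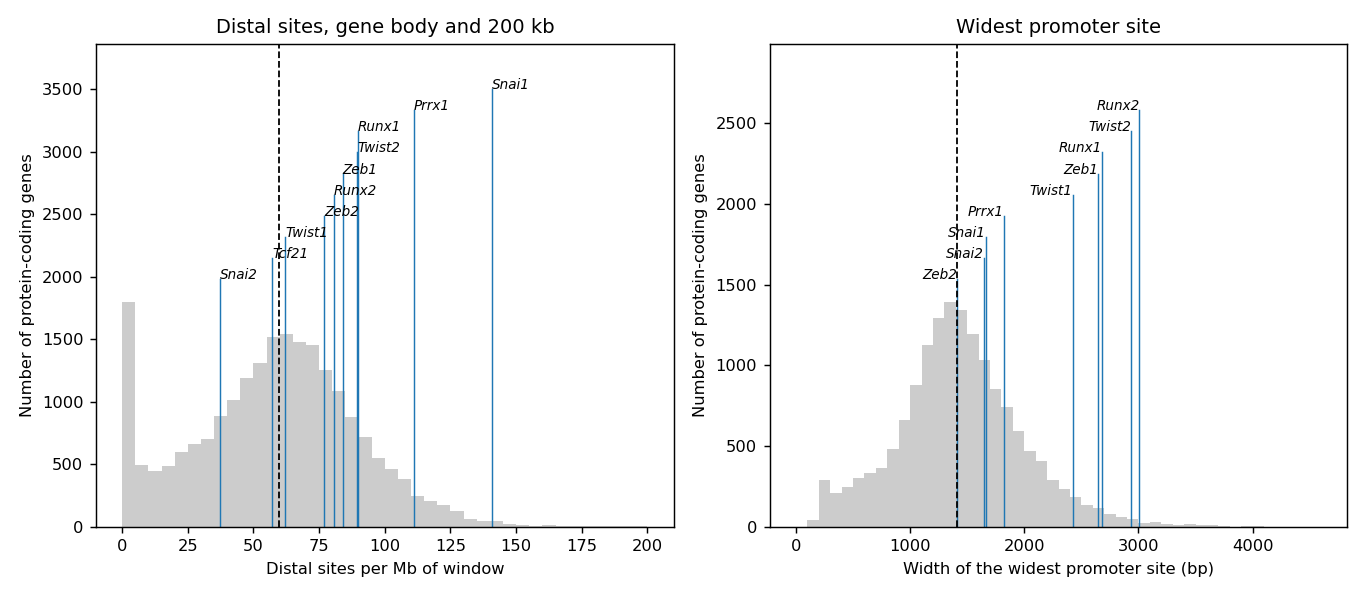
Histograms of protein-coding genes by distal sites per Mb of window (left) and by width of the widest promoter site in bp (right), with the number of genes on the y axes. Blue lines mark the 10 genes, 9 on the right, and dashed lines the medians of 59.6 per Mb and 1412 bp; line heights only separate the names. On the left 8 genes lie above the median, and on the right Zeb2 lies at it and the others above.

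The Snail and Twist paralogues had unequal surroundings, and the ZEB and RUNX pairs were nearer in number. Snai1 and Snai2 are both short genes, and their windows of 0.40 Mb held 57 and 15 distal sites. The Snai1 window also held the 5′ ends of 8 other protein-coding genes, all with a promoter site, Cebpb and Ube2v1 among them, and 8 of its 57 distal sites had Snai1 as the nearest coding start. The Snai2 window held 2 others, Efcab1 and A630010A05Rik, neither with a promoter site, and a stretch of 122 kb upstream of Snai2 was free of any site. Twist1 had 25 distal sites and Twist2 40. Zeb1 and Zeb2 had 49 and 41, and Runx1 and Runx2 56 and 58, over windows of unequal length.

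**Figure D4:**
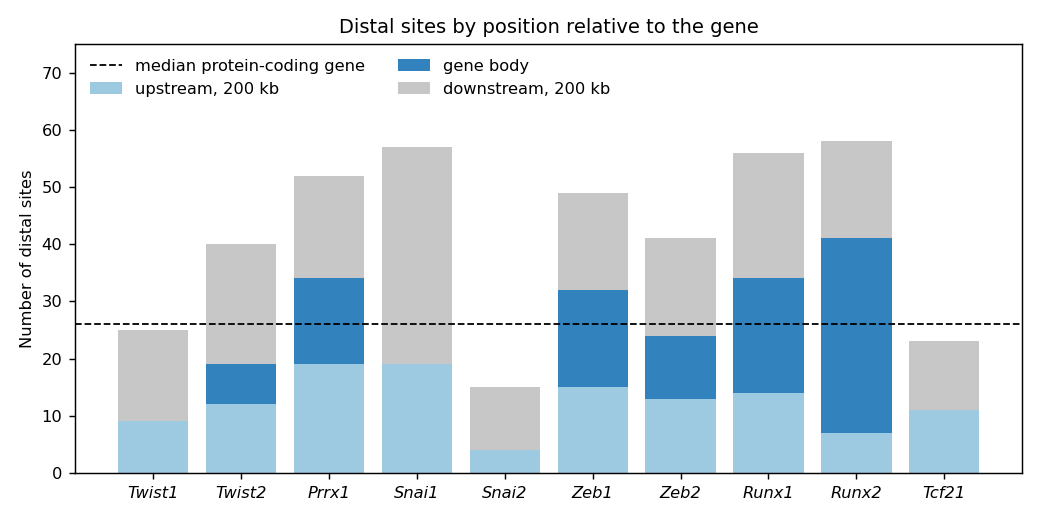
Number of distal sites of each gene (y axis) split into the 200 kb upstream, the gene body and the 200 kb downstream. The dashed line is the median protein-coding gene, 26. Bars run from 15 at Snai2 to 58 at Runx2, of which 34 lie in the gene body.

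The distal sites fell 123 upstream, 104 in the body and 189 downstream of the genes. Counts over all 10 genes did not fall off with distance from the gene: the mean per gene was 8.5 sites in the nearest 50 kb, 7.7 in the next, then 6.9 and 8.1 out to 200 kb. Over all protein-coding genes the same distances held 5.75, 5.77, 5.81 and 5.81. For 220 sites, 52.9%, the nearest protein-coding start was that of the gene itself, and this share ran from 8 of 57 at Snai1 to 36 of 49 at Zeb1. Exons of protein-coding genes held 6 of the 416 sites, and 235 lay outside protein-coding genes. A median of 1.5 other protein-coding genes began in each window, against 7 for protein-coding genes in general.

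Sites inside the genes were dense at Prrx1 and Twist2. The body of Prrx1, 68.6 kb, held 15 distal sites, 21.9 per 100 kb, a rank of 99.5% among 10159 protein-coding genes of at least 20 kb, whose median was 5.08. A run of 5 sites, each within 5 kb of the next, lay 20.5 to 31.6 kb into Prrx1, and a site of 1844 bp began 1036 bp from its start sites, just past the promoter window. Twist2, with a body of 46.6 kb, held 7, or 15.0 per 100 kb (rank 96.1%). Runx2 held 34 in 319 kb, the most by number and 10.7 per 100 kb (84.8%). Zeb1 held 17 (9.26 per 100 kb), Runx1 20 (8.90) and Zeb2 11 (8.22). In Zeb2 a run of 6 sites spanned 16971 bp, 44.9 to 61.4 kb into the gene. The short genes Twist1, Snai1, Snai2 and Tcf21 held none.

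Other sites lay inside neighbouring genes. Of the 25 distal sites of Twist1, 8 were in the body of Hdac9, a histone deacetylase gene downstream of it, which is known to carry limb enhancers of Twist1. The widest of the 25, 1958 bp (chr12:34075266-34077223), was one of these, 118.6 kb from the 5′ end of Twist1, and lay in an intron. Of the 40 sites of Twist2, 10 were in Hdac4, the paralogue of Hdac9, and again the widest, 1531 bp (chr1:92041466-92042996), was among them. Zeb2 had 9 sites in Gtdc1, Runx1 had 10 in Rcan1, an inhibitor of calcineurin, and Runx2 had 9 in Supt3, which overlaps it. Which gene any of these sites acts on was not measured.

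The widest distal sites of the other genes lay at varied distances. That of Snai1, 1552 bp (chr2:167543021-167544572), was also its nearest, 4826 bp from the start. That of Snai2, 1724 bp, was 178374 bp from its start and nearest to Efcab1. That of Prrx1, 1965 bp, was upstream, 191137 bp from its start sites and nearest to Gorab, and that of Zeb2, 1520 bp, was downstream in Gtdc1. That of Zeb1, 2031 bp, was 228 kb from the 5′ end, past the end of the gene, and Zeb1, with no other protein-coding gene beginning in its window, remained the nearest start. That of Runx1, 1955 bp (chr16:92608079-92610033), was in the body, 217 kb from the upstream promoter. That of Runx2, 2040 bp (chr17:44766929-44768968), was 46.8 kb into the gene, between P1 and P2. Tcf21, without a promoter site, had a distal site of 2055 bp (chr10:22980864-22982918) upstream of it, 160690 bp from its start sites and nearest to Eya4. Its nearest distal site, 218 bp wide, was 6245 bp from its start, and over the 10 genes this distance ran from 1036 bp at Prrx1. The longest run of sites within 5 kb of each other held 2 sites at Snai2, 6 at Zeb2 and 3 to 5 at the others. The 416 distal sites had a median width of 622 bp (quartiles 363 and 919) against 565 bp (336 and 857) over all 127255, and 5.77% against 2.90% reached 1500 bp.

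Motifs of the factors' own families, of AP-1 and of TEAD were found in the middle of these distal sites at shares close to those in all distal sites. Over whole sites the share was higher for some of them, AP-1 and TEAD included, and not for the homeodomain motif. The middle 200 bp of each site was searched on both strands for 7 motifs: the E-boxes CAGGTG (SNAI and ZEB), CAGATG (TWIST) and CAGCTG (TCF21), TGTGGT (RUNX), TAATTA (homeodomain, as PRRX1), and TGANTCA (AP-1) and GGAATG (TEAD), which are common in fibroblast enhancers. CAGGTG was in 10.1% of the 416 sites (95% Wilson interval 7.56 to 13.4) and in 9.93% of all distal sites. CAGATG was in 18.03% (14.6 to 22.0) against 17.2%, and CAGCTG in 11.5% (8.81 to 15.0) against 12.1%. TGTGGT and TGANTCA were each in 22.8% (19.1 to 27.1), against 20.9% for both. GGAATG was in 18.5% (15.1 to 22.5) against 17.6%, and TAATTA in 5.77% (3.91 to 8.44) against 4.94%. Each interval holds the share of all distal sites, and it covers the sampling of sites only, which are not independent. The median GC content was 45% in both. Over whole sites this no longer held: for 5 of the 7 motifs the interval lay above the share of all distal sites, for example TGANTCA in 47.4% (42.6 to 52.2) against 39.8% and TGTGGT in 51.0% (46.2 to 55.7) against 45.2%. It held that share for the other 2, CAGCTG and TAATTA. The 416 sites are wider, with medians of 622 and 565 bp, and the part of width in this was not tested.

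**Figure D5:**
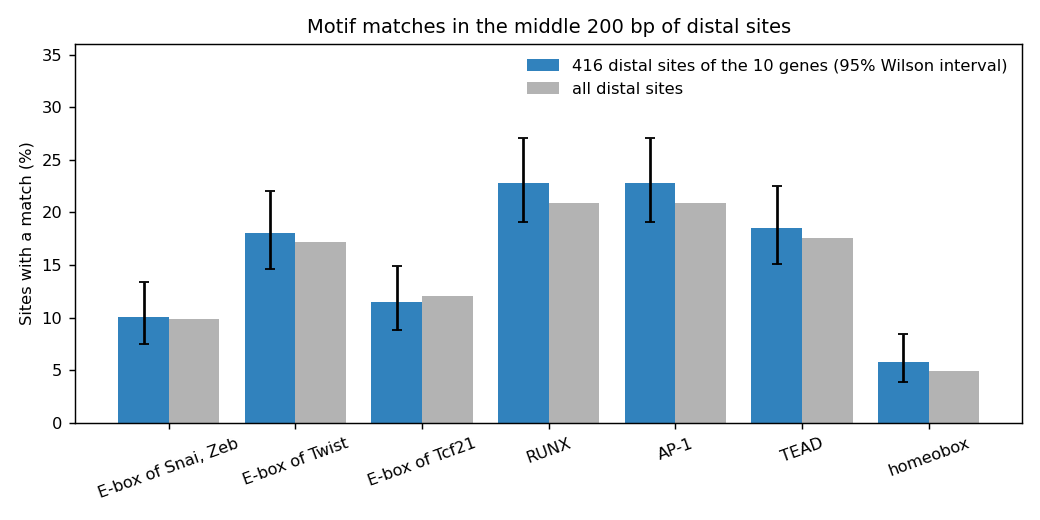
Share of distal sites with a match in the middle 200 bp, in percent (y axis), for 7 motifs (x axis). Blue bars are the 416 sites of the 10 genes with 95% Wilson intervals and grey bars all 127255 distal sites; every interval includes the grey bar, for example 19.1 to 27.1 against 20.9 for RUNX.

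Single genes ranged more widely on few sites. CAGGTG was in 10 of 57 sites at Snai1 and in 0 of 15 at Snai2, and TGTGGT in 16 of 52 at Prrx1 and 3 of 23 at Tcf21. TAATTA was in 6 of 52 at Prrx1, 6 of 56 at Runx1, 2 of 15 at Snai2 and 1 of 58 at Runx2, against 4.94% of all distal sites. CAGATG was in 2 of 25 at Twist1 and 12 of 41 at Zeb2, and TGTGGT in 11 of 56 at Runx1. No match to any of the 7 motifs was found in 127 of the 416 sites, and 1 kind in 160. Such counts of kinds, and those of overlapping matches below, were not made over all distal sites. The 3 sites below, chosen for holding 4 or more kinds, show how the letters can lie together. They are the middle 200 bp on the plus strand (GRCm38.p6), with the matches on either strand in capitals. Overlapping matches of different motifs were seen in 7 of the 416 sites.
Site upstream of Runx1 (chr16:93006712-93006911, plus strand): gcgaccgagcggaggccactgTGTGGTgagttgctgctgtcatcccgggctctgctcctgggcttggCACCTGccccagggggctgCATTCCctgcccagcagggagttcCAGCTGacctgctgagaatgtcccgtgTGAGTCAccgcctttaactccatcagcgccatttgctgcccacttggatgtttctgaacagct
Site 73.4 kb downstream of the Twist2 5′ end (chr1:91874773-91874972, plus strand): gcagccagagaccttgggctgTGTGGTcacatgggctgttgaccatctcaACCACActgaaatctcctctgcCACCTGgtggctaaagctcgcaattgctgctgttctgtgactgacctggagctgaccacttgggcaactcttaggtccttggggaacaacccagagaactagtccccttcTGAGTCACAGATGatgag
Site 68.6 kb downstream of the Snai1 5′ end (chr2:167606734-167606933, plus strand): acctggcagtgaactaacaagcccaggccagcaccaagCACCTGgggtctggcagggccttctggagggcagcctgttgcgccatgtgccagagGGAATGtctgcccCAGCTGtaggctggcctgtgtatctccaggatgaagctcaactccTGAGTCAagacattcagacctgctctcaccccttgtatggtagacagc

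The first of these held 5 kinds of motif, all but the TWIST E-box and the homeodomain motif, and no other of the 416 sites held as many. In the second an AP-1 match was followed directly by the TWIST E-box, and the RUNX motif occurred 2 times, once on each strand. The third held a SNAI and ZEB, a TCF21, a TEAD and an AP-1 match and no RUNX match.

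Genes that work with these factors mostly had promoter sites as well. Of 15 partners and relatives, 14 had a promoter site: the E proteins Tcf3, Tcf4 and Tcf12, their inhibitors Id1 to Id4, Cbfb, Runx3, Snai3, Prrx2, Scx, Msc and Hand2. The one without was Hand1. Of these 15 genes 14 were CpG-rich, so the count was near the 96.5% of such genes in general. Their median of distal sites was 37, below the 45 of the 10 genes and above the 26 of protein-coding genes. All 5 mesenchymal effector genes, 3 of them CpG-rich, had a promoter site: Vim, which encodes vimentin, Cdh2 (N-cadherin), Fn1 (fibronectin), S100a4 and Tgfb1i1. So did all 12 epithelial genes of the opposing programme, 9 of them CpG-rich and Mir200c not classed. Among them were Cdh1, which encodes E-cadherin, and Epcam, Ovol1, Ovol2, Grhl2 and the microRNA gene Mir200c. Of all protein-coding genes 70.8% had a promoter site, and of CpG-rich ones 96.5%. These 2 lists are short, and their counts were not tested against those shares. The widest promoter sites of the 12 epithelial genes had a median of 1372 bp. The median was 1861 bp at the mesenchymal effector genes, 1919 bp at the partners and relatives and 2423 bp at the 10 factors. The lists were not matched for CpG content or number of start sites. Cdh1 had 949 bp, Cldn3 442 bp and Cldn4 225 bp, while Esrp2 had 2462 bp, Ovol1 2277 bp and Ovol2 2039 bp. Promoter sites were thus listed for both programmes, and a list without signal values does not say how open a promoter was.

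Markers of cell type were counted on short lists, and differences between the lists were not tested. Of all protein-coding genes 70.8% had a promoter site, and of the CpG-rich ones 96.5%. A promoter site was found for 9 of 10 fibroblast markers, with Lum as the exception, for 5 of 8 epithelial markers, not Krt5, Krt14 or Krt18, and for all 4 endothelial markers. Of the 5 epithelial markers with a site, Epcam, Cdh1, Esrp1 and Grhl2 are also among the 12 epithelial genes above, and the fifth is Krt8. The blood cell genes Ptprc, Spi1, Cd3e and Gata1 had no promoter site. Of the 10 fibroblast markers 1 was CpG-rich, of the 8 epithelial markers 3 were, and of the 4 endothelial markers 1 was. The blood cell genes named here were not CpG-rich.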

How the data were processed

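ATAC-seq was performed on 10 libraries of iMEF clone NG3. Per their methods and processing notes, the authors used Trim Galore for trimming, BWA for alignment to mm10, SAMtools for filtering after ENCODE recommendations, Picard for merging replicates and MACS2 for narrow peaks, with DESeq2 and deepTools downstream. Versions, the peak threshold, any shift for the Tn5 cut and the joining of sites between samples are not given in the sources used here; each could change the number, edges and width of sites. The file as deposited by the authors holds other values than counts: the chromosome, start and end of each site, with 0 columns of other samples. The depth of the libraries is unknown.

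Starts were read as counted from 0 with open ends and are printed counted from 1; the smallest step between neighbours was 1 and 0 sites ended beyond their chromosome in GRCm38. The 242 sites on other sequences were left out. Genes and start sites came from GENCODE release M21, and bases from RefSeq (GRCm38.p6). An overlap of 1 bp with the window of 1 kb made a promoter site. Ranks count ties as equal parts above and below. Shares carry a 95% Wilson interval.

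The 10 genes, the lists and the motifs were chosen with earlier results of these data known. A further blood marker is not reported here. The rule for names took all 10 genes with each promoter site, the widest and nearest distal site, the longest run of sites within 5 kb of each other and the most frequent host gene. Nearest sites and runs are mostly given as ranges. The 3 printed distal sequences were chosen after their matches were seen. Scripts were tested on simulated data. Alternatives were windows of 500 bp and 3 kb, flanks of 100 and 500 kb, other start sites, wider sites, sites at most 100 bp apart merged, other ranks and whole sites for motifs, which changed the reading of 5 motifs. Python 3.11.15, NumPy 2.4.6, SciPy 1.17.1 and Matplotlib 3.10.9 were used.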

Additional observations from a re-analysis of the deposited data

How the results depend on the processing

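No paired analysis was possible because positions were deposited without a value for any library. Of 44 values under alternatives, 30 moved by less than 1.5 times, by less than 10 percentage points of rank or, for motif shares, within the Wilson interval, and 14 moved more. These alternatives count fewer, more or longer stretches by construction, and no further cause was tested. Distal sites in total came to 266 within 100 kb, 900 within 500 kb and 210 when sites narrower than the median were dropped. The median per gene was 88.5 within 500 kb (62 over protein-coding genes) and 24.5 with the wider sites (11). Ranked by number of sites, the median rank was 90.2%. Searching whole sites gave CAGGTG in 33.4% (28.3% of all distal sites), CAGATG in 46.4% (41.5%), CAGCTG in 32.0% (29.9%), TGTGGT in 51.0% (45.2%), TGANTCA in 47.4% (39.8%), GGAATG in 44.0% (38.7%) and TAATTA in 14.9% (15.4%), where the 416 sites are also wider. TGTGGT was in 18.6% among the wider sites (20.6% of all). The count of 9 genes with a promoter site was the same under all 5 alternatives, and 7 to 10 genes were above the median density. Snai2 and Tcf21 were above it within 500 kb, and Tcf21 also outside 3 kb of start sites. Twist1 was below it with the wider sites, with coding start sites, on its own chromosome and by number of sites. At the outermost 5′ ends the median width was 1819 bp.

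The list says where sites were called in at least 1 sample. It does not give how open they were, in which of the 5 groups, or what dTAG-13 changed, and sites missed at the unknown depth cannot be told from closed ones.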
